A study of Mus musculus with 18 samples.

Results

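Expression of 10 marker genes of blood vessel cells was described in 18 RNA-seq libraries of cells sorted by flow cytometry from the mouse mammary gland. The genes are named markers of endothelium (Kdr, Pecam1, Cdh5, Tek, Eng and Vwf) and of pericytes and other mural cells (Mcam, Cspg4, Pdgfrb and Rgs5), taken as a list and matched by Ensembl identifier, 10 of the 52636 genes in each deposited table. The libraries form 6 groups of 3. Mice were wild type for Esr1, the gene of estrogen receptor alpha (WT), or carried the Esr1 mutation D542G or Y541S, and each genotype gave cells of a gate labelled ML, for mature luminal, and cells of another gate, here called N. All mice, of all 6 groups, were 6 months old, carried E2 and P4 hormone pellets (estradiol and progesterone) and were then dosed orally with giredestrant, an antagonist of the receptor, at 30 mg/kg for 4 consecutive daily doses. The labels give 3 biological replicates per condition and name mature luminal cells as the source of the N libraries too. They do not say how the N gate was set, how the mutations were introduced, or whether libraries of both gates came from the same animals. P-values measure the spread between these libraries, which the main fit took as independent of each other. A pairing of N with ML libraries, inferred from the data, was used only in an alternative fit and in counts of pairs.

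Endothelial cells line blood vessels and are joined at their borders by adhesion molecules such as VE-cadherin and PECAM-1. They respond to growth factors through receptor tyrosine kinases, with VEGF-A acting on KDR and angiopoietins on TEK. Pericytes sit on the outside of capillaries, are recruited by PDGF-B through PDGFRB, and share part of their gene expression with smooth muscle. In the mammary gland these vessels run through the fat pad around the ducts, outside the epithelium from which luminal cells are sorted.

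By the GENCODE M21 annotation of GRCm38, all 10 are protein-coding genes on 9 chromosomes. Kdr (ENSMUSG00000062960) lies at chr5:75932827-75978458 on the minus strand and Pecam1 (ENSMUSG00000020717) at chr11:106654217-106750628 on the minus strand. The others lie on the plus strand. Cdh5 (ENSMUSG00000031871) spans chr8:104101625-104144511, Tek (ENSMUSG00000006386) chr4:94739289-94874976, Eng (ENSMUSG00000026814) chr2:32646595-32682669 and Vwf (ENSMUSG00000001930) chr6:125546774-125686679. Mcam (ENSMUSG00000032135) spans chr9:44134469-44142727, Cspg4 (ENSMUSG00000032911) chr9:56865033-56899870, and Rgs5 (ENSMUSG00000026678) chr1:169655501-169695813. Other annotated genes cover 2.57% of the exon bases of Cdh5, 1.51% of those of Eng and 0.508% of those of Mcam, and how the authors assigned reads there is not given in the sources used here.

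RefSeq promoter entries (GRCm38.p6) were found for 6 of the genes: Kdr, Tek, Eng, Mcam, Cspg4 and Rgs5. The 250 bases before the start of Kdr (chr5:75978456-75978705, minus strand), Mcam (chr9:44134408-44134657, plus strand) and Cspg4 (chr9:56864854-56865103, plus strand) are shown because these 3 genes were higher in the N gate. The starts are those of RefSeq, which differ from the GENCODE starts, so that part of each window lies within the gene span given above. Capitals mark GGAA and its reverse complement TTCC, the core letters that ETS factors such as FLI1 and ERG bind in endothelial genes.
Kdr: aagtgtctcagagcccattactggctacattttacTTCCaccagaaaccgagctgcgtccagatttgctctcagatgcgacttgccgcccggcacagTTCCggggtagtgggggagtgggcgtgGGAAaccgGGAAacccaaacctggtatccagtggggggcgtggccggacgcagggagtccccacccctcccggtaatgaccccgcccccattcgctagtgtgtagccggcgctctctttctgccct
Mcam: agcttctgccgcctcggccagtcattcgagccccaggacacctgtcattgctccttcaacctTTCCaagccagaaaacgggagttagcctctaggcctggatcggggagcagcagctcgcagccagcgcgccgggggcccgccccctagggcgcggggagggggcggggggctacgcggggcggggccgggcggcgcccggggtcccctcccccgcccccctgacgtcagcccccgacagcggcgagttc
Cspg4: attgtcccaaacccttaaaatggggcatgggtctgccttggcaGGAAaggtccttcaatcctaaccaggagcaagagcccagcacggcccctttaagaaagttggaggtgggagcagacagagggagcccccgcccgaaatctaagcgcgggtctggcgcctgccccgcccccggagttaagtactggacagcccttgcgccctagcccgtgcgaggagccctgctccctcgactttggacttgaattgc
Counting both strands, the Kdr window holds 4 matches, the Mcam window 1 and the Cspg4 window 1, against 2 for Tek, 3 for Eng and 3 for Rgs5. Of 32851 promoter windows of this length 93.4% hold at least 1 match and the median is 3, so nearly all promoters hold these letters. The longer form CCGGAA, which contains GGAA, occurs once in the Kdr window and in none of the other 5, and 12.03% of all windows hold it.

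Libraries held 34797778 to 49507144 gene counts, and values are CPM, counts per 1000000 of a library's TMM-scaled total. Between the gates the genes of mature luminal epithelium (10 genes, among them Esr1, Prlr, Krt8 and Epcam) summed to 8578 to 15564 CPM in the 9 ML libraries. They summed to 1020 to 5033 CPM in 8 of the N libraries and to 11419 CPM in WT N 3, which thus lies within the ML range. Basal epithelial genes (11 genes) summed to 992 to 10463 CPM in ML and 6405 to 41696 CPM in N, with WT N 3 the lowest N library. WT ML 1, WT ML 2 and Y541S ML 3 carried 6211, 1283 and 4044 CPM of 11 hair follicle keratins, against at most 150.2 CPM in the 15 others. Calls were therefore also made without WT N 3, Y541S N 2 and Y541S N 3, the N libraries with the lowest voom quality weights, and without WT ML 1, WT ML 2 and Y541S ML 3.

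All 10 genes were detected in every library, at 8 reads or more, and all 10 passed the filter on low counts. A gene is called where edgeR's quasi-likelihood test gave a Benjamini-Hochberg adjusted p under 0.05 over the 18298 genes tested. Between N and ML over the 3 genotypes, 9 libraries a gate, 6 of the 10 genes were called: Kdr, Pecam1, Cdh5, Mcam and Cspg4 rose in N and Vwf fell. The share of all genes called in this comparison was 27.4%, with 13.8% higher and 13.6% lower. The median log2 fold change of the 10 was 1.17 and that of all tested genes -0.03. These are bulk libraries, in which fewer cells of a type and less RNA per cell cannot be told apart.

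**Figure D1:**
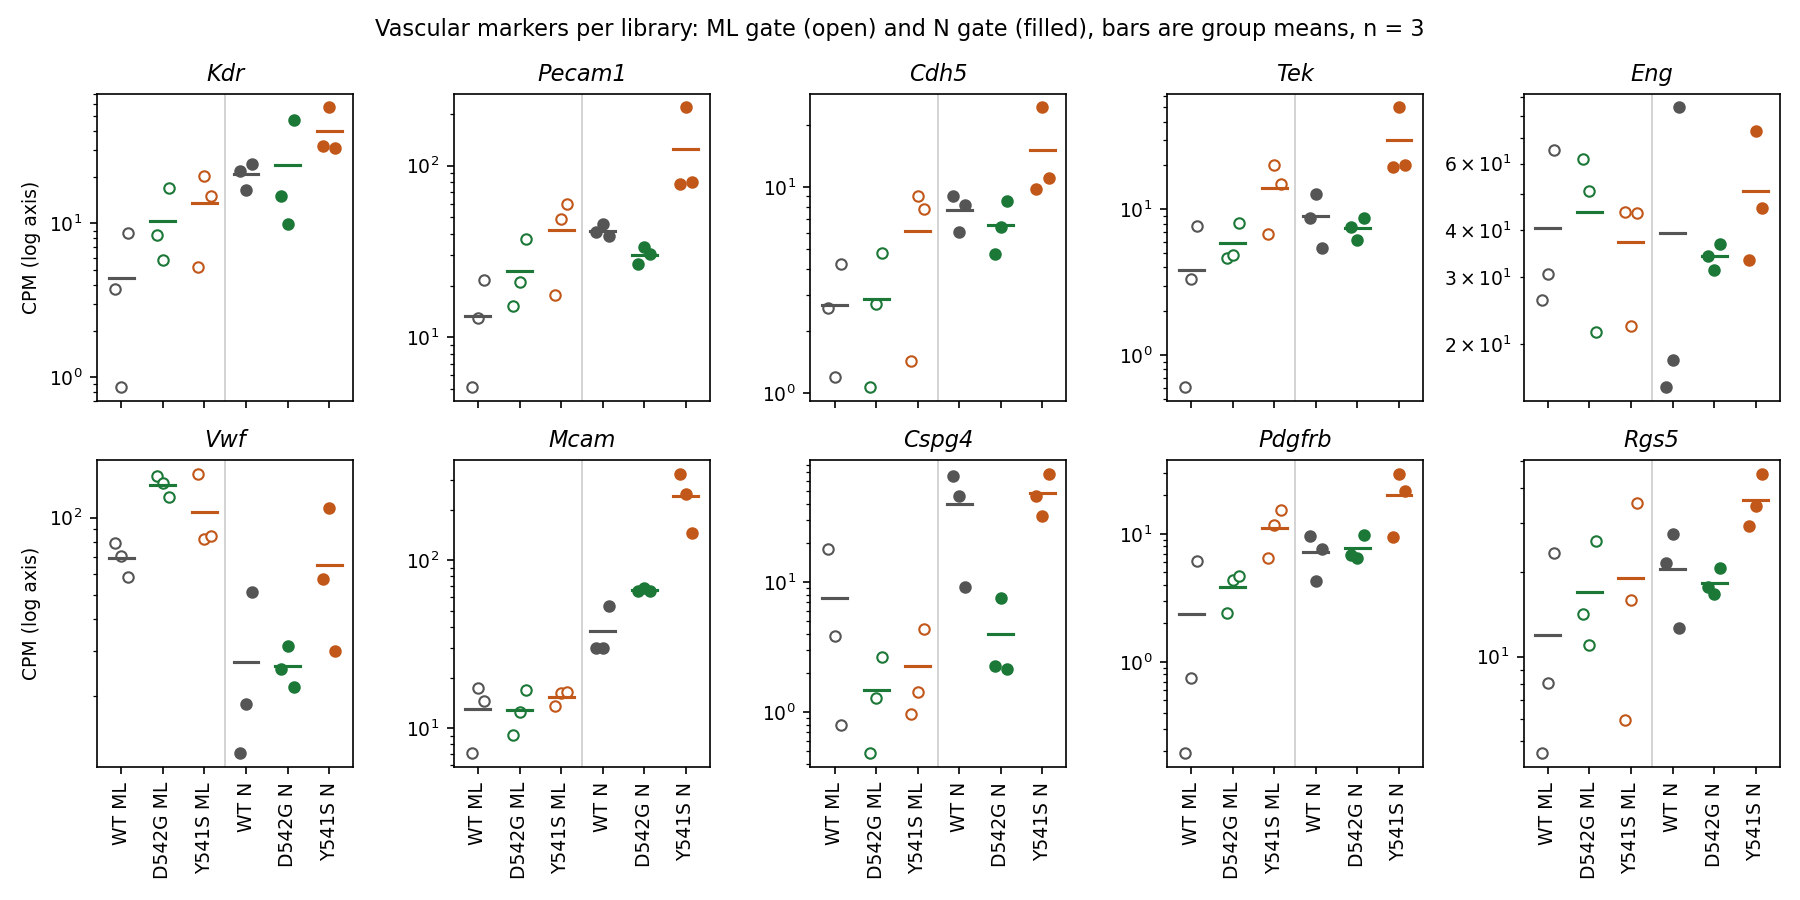
CPM of each of the 10 genes (log axis) in every library, by group, with open points for the ML gate, filled points for the N gate and bars for the means of 3 libraries. Every N library lies above every ML library for Mcam, and for Vwf 8 of 9 N libraries lie below every ML library.

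Of the growth factor receptors, Kdr, the main VEGF receptor of endothelium, was at 3.75, 0.858 and 8.69 CPM in WT ML libraries 1 to 3, at 8.47, 5.78 and 17.0 CPM in D542G ML and at 5.203, 20.3 and 15.2 CPM in Y541S ML. In the N gate it was at 21.8, 16.6 and 24.5 CPM in WT, 15.1, 9.91 and 46.9 CPM in D542G and 31.8, 56.8 and 31.0 CPM in Y541S. All 9 N libraries were above the ML median of 8.47 CPM, and 6 of them were above every ML library. Kdr rose by 1.67 ± 0.43 on the log2 scale (SE, adjusted p = 0.0107), and N was higher in 9 of the 9 pairs of libraries with the same genotype and number. Without WT ML 1, WT ML 2 and Y541S ML 3 the value was 1.39 ± 0.47 and no longer called (adjusted p = 0.0618).

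Tek, the angiopoietin receptor, ranged from 0.601 to 20.1 CPM in ML (median 6.75) and from 5.40 to 49.98 CPM in N (median 8.75), and the gates overlapped widely. Its log2 difference of 0.89 ± 0.39 was not called (adjusted p = 0.103), although 8 of 9 pairs had the higher value in N. Leaving out WT ML 3 gave 1.21 ± 0.36 (adjusted p = 0.0274), with WT ML 1 and WT ML 2, rich in hair keratins, as the WT ML libraries left. Over all alternatives the log2 difference of Tek ranged from 0.60 to 1.21. Eng encodes endoglin, a co-receptor for TGF-beta and BMP ligands. It ranged from 21.5 to 65.002 CPM in ML and from 15.3 to 84.4 CPM in N, with medians of 44.5 and 34.1 CPM. The log2 difference was 0.00 ± 0.34 (adjusted p = 0.9999), with 4 of 9 pairs higher in N. The highest Eng value was in WT N 3, and without that library the difference was -0.41 ± 0.26 (adjusted p = 0.250).

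Of the junction proteins, Pecam1 was at 5.09, 13.0 and 21.5 CPM in WT ML, 15.2, 20.8 and 37.3 CPM in D542G ML and 17.6, 49.0 and 60.1 CPM in Y541S ML. In the N gate it was at 40.8, 45.5 and 38.9 CPM in WT, 26.6, 33.3 and 30.4 CPM in D542G and 78.3, 218 and 80.0 CPM in Y541S. All N libraries exceeded the ML median of 20.8 CPM, but only the 3 of Y541S exceeded every ML library. Pecam1 rose by 1.18 ± 0.31 on the log2 scale (adjusted p = 0.0124). The D542G libraries numbered 3 were the 1 pair of 9 in which N was lower.

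Cdh5, the gene of VE-cadherin, was at 2.57, 1.19 and 4.23 CPM in WT ML, 1.06, 2.71 and 4.77 CPM in D542G ML and 1.43, 9.07 and 7.83 CPM in Y541S ML. Its N values were 9.002, 6.08 and 8.21 CPM in WT, 4.71, 6.40 and 8.51 CPM in D542G and 9.82, 24.3 and 11.0 CPM in Y541S. As for Pecam1, every N library lay above the ML median and the 3 of Y541S above all of ML. Cdh5 rose by 1.35 ± 0.39 (log2, adjusted p = 0.0189), and N was higher in all 9 pairs. Without the 3 N libraries of lowest quality weight neither gene was called, at 0.97 ± 0.34 for Pecam1 (adjusted p = 0.0549) and 1.13 ± 0.46 for Cdh5 (adjusted p = 0.0903). Without the 3 ML libraries rich in hair keratins Cdh5 was again not called, at 1.22 ± 0.49 (adjusted p = 0.108).

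Vwf encodes von Willebrand factor, which endothelial cells and megakaryocytes store and release and which tethers platelets. It went the other way. ML libraries held 79.4, 70.9 and 58.7 CPM in WT, 146, 137 and 121 CPM in D542G and 149, 82.3 and 84.9 CPM in Y541S. N libraries held 11.9, 18.7 and 51.2 CPM in WT, 25.5, 31.4 and 21.8 CPM in D542G and 57.3, 109 and 30.0 CPM in Y541S. Only Y541S N 2 lay above the lowest ML library, and it was also the 1 pair of 9 with more Vwf in N. Vwf fell by 1.47 on the log2 scale (SE 0.28, adjusted p = 0.00171).

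Summed over 8 platelet and megakaryocyte genes, of which 6 were tested and 0 called between the gates (adjusted p 0.108 or more for each), the levels were 4.37 to 10.6 CPM in ML and 3.85 to 29.1 CPM in N. The platelet gene Pf4 stood at 1.32 CPM (median) in ML and 1.78 CPM in N. Of the 10 mature luminal genes, 6 fell and 0 rose in N. WT N 3, the N library within the ML range for the mature luminal sum, had the highest Vwf level of the WT N libraries. Its platelet and megakaryocyte sum was 23.4 CPM. Y541S N 2, with the highest Vwf level of all N libraries (109 CPM), had a mature luminal sum of 3084 CPM, below the ML range. Its platelet and megakaryocyte sum was 29.1 CPM. The part of either list in the Vwf difference was not tested.

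Among the mural genes, Mcam encodes CD146, an adhesion molecule of pericytes, smooth muscle and endothelium. It was at 7.07, 17.3 and 14.5 CPM in WT ML, 9.06, 12.5 and 16.9 CPM in D542G ML and 13.6, 16.1 and 16.5 CPM in Y541S ML. In N it was at 30.0, 30.0 and 53.4 CPM in WT, 65.4, 68.3 and 65.6 CPM in D542G and 328, 248 and 146 CPM in Y541S. The gates did not overlap in any genotype, and neither did the 3 genotypes within N. The share of all genes without such overlap was not counted, so this is a description. Mcam rose by 2.63 ± 0.21 on the log2 scale, 6.18-fold (adjusted p = 2.06e-06), with the smallest p of the 10 genes.

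Cspg4 encodes the NG2 proteoglycan, a surface marker of pericytes that other cells also carry. It was at 18.0, 3.82 and 0.795 CPM in WT ML, 0.481, 1.29 and 2.67 CPM in D542G ML and 0.974, 1.42 and 4.33 CPM in Y541S ML. In N it was at 65.2, 46.2 and 9.18 CPM in WT, 2.27, 7.51 and 2.16 CPM in D542G and 46.1, 32.0 and 68.3 CPM in Y541S. High values were thus found in WT N 1, WT N 2 and the Y541S N libraries, while D542G N lay inside the ML range, whose upper end is set by WT ML 1. Of the D542G N libraries, D542G N 2 lay above every other ML library. Cspg4 rose by 2.76 ± 0.59 (log2, adjusted p = 0.00369) over the 3 genotypes, with N higher in 8 of 9 pairs. Without WT ML 1, WT ML 2 and Y541S ML 3 the value was 4.16 ± 0.71 (adjusted p = 0.00253).

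Pdgfrb (ENSMUSG00000024620, chr18:61045150-61085061, plus strand), the PDGF-B receptor of mural cells and fibroblasts, ranged from 0.192 to 15.2 CPM in ML (median 4.71) and from 4.32 to 29.6 CPM in N (median 9.43). N was higher in 9 of 9 pairs, and the ranges overlapped. The log2 difference was 1.16 ± 0.48 (adjusted p = 0.0867). With library numbers as blocks it was 1.499 ± 0.46 and called (adjusted p = 0.0390), and without WT ML 3 it was 1.94 ± 0.34 (adjusted p = 0.00134). The WT ML libraries then left were WT ML 1 and WT ML 2, rich in hair keratins and with 8 and 27 Pdgfrb reads. Over all alternatives the log2 difference of Pdgfrb ranged from 0.79 to 1.94. Rgs5, a regulator of G protein signalling typical of pericytes, ranged from 4.52 to 35.3 CPM in ML and from 12.7 to 45.0 CPM in N, with medians of 14.2 and 21.5 CPM. Its difference of 0.60 ± 0.35 was not called (adjusted p = 0.220), and N was higher in 7 of 9 pairs. Limma-voom called it (0.87 ± 0.29, adjusted p = 0.0250), and without WT ML 3 it was 0.91 ± 0.31, at the threshold. Over all alternatives the log2 difference of Rgs5 ranged from 0.46 to 0.91.

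**Figure D2:**
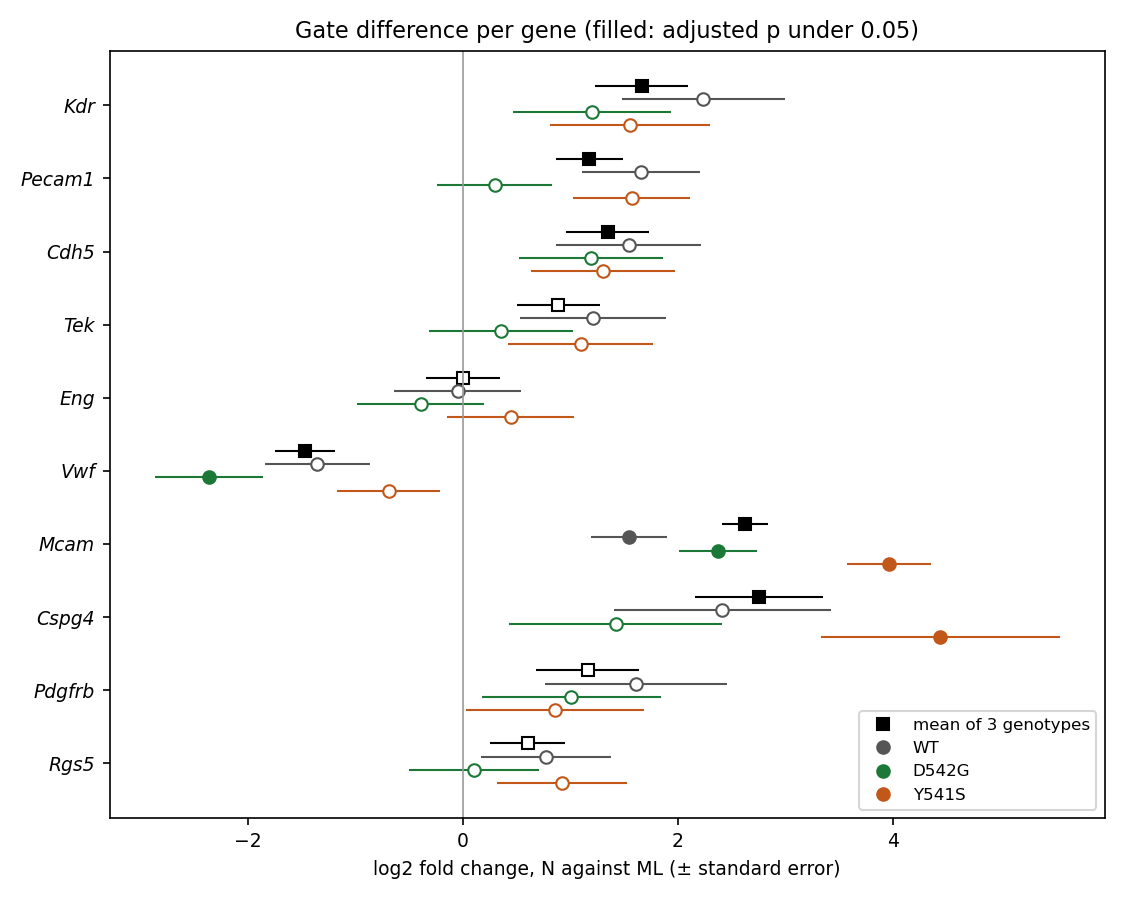
Log2 fold change of N against ML for each gene, over the 3 genotypes (squares) and within each genotype (circles), with bars of 1 standard error and filled symbols for adjusted p under 0.05. Mcam is filled in all 4 rows, Vwf lies to the left of 0 in each, and Eng lies across 0.

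Set per kilobase of exon, which allows levels of different genes to be compared, the order of the genes differed between the gates. In ML Eng was highest at a mean of 10.1 CPM per kb, followed by Vwf (6.42), Pecam1 (4.28), Mcam (4.10) and Rgs5 (3.52). Tek (1.68), Pdgfrb (1.06), Kdr (1.05), Cdh5 (0.922) and Cspg4 (0.314) followed, and the ranges over libraries of all neighbours in this order overlapped. In N Mcam was highest at 34.3 CPM per kb (range 8.94 to 98.0), ahead of Pecam1 (10.6), Eng (10.2), Rgs5 (5.50) and Tek (3.28). Kdr (3.13), Cspg4 (2.60), Vwf (2.47), Cdh5 (2.33) and Pdgfrb (2.14) followed, again with overlapping ranges between neighbours. Vwf thus went from rank 2 to rank 8 and Mcam from rank 4 to rank 1.

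A longer list of 26 endothelial genes, all tested, gave 13 that rose in N and 0 that fell, with a median log2 fold change of 1.14, beside 13.8% of all genes called higher. Within single genotypes 1 of the 26 rose in WT (median 1.26), 0 in D542G (median 0.56) and 3 in Y541S (median 1.41), against 3.53%, 9.2% and 6.95% of all genes called in either direction. The smallest p-values belonged to the transcription factor Sox7 (1.85 ± 0.31, adjusted p = 0.000609), the capillary lipase anchor Gpihbp1 (1.64 ± 0.33, adjusted p = 0.00213) and the ETS factor Fli1 (1.82 ± 0.39, adjusted p = 0.00374). Cd34, a sialomucin also found on other progenitor and stromal cells, rose by 1.66 ± 0.41 (adjusted p = 0.00863) and the C-type lectin Clec14a by 1.34 ± 0.36 (adjusted p = 0.0124). The summed level of the 26 genes was 119 to 475 CPM in the ML libraries and 259 to 1357 CPM in the N libraries. Y541S N 2 held the highest value of 20 of the 26, as it did for Kdr, Pecam1, Cdh5, Tek and Pdgfrb. Sox7 and Cd34, named above, were instead higher in WT N 1, WT N 2 and Y541S N 3 than in any other library. Of 5 matched lymphatic genes 1 was called, Pdpn (3.31 ± 0.37, adjusted p = 2.59e-05), which basal epithelium also expresses, and the lymphatic regulator Prox1 was at a median of 1.998 CPM in ML and 0.913 CPM in N.

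Of 14 other mural genes tested, 2 rose and 2 fell, with a median of 0.41, a share called that is close to the 27.4% of all genes. Notch3, a receptor of mural cells that luminal epithelium also expresses, fell by 1.92 on the log2 scale (SE 0.23, adjusted p = 4.06e-05), from a median of 37.8 CPM in ML to 9.63 CPM in N. The peptidase gene Anpep fell by 1.51 (SE 0.16, adjusted p = 1.498e-05). Ndufa4l2, a mitochondrial protein abundant in pericytes, rose by 3.33 ± 0.84 (adjusted p = 0.00944) and Rgs4, a relative of Rgs5, by 1.43 ± 0.40 (adjusted p = 0.0154).

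Contractile genes, which vascular smooth muscle shares with mammary myoepithelium, rose for 9 of 10, with a median of 2.70. Smooth muscle actin Acta2 rose by 3.17 ± 0.40 (adjusted p = 6.02e-05), and its median went from 54.9 CPM in ML to 318 CPM in N. The 10 together reached 117 to 321 CPM in ML. In N they reached 443 to 1293 CPM (WT), 1327 to 1403 CPM (D542G) and 4417 to 7838 CPM (Y541S). Mcam took the same order of groups as these sums. Gene by gene, D542G against WT in N gave a median log2 difference of -0.25 for the 10, with 1 called higher, beside 2.43% of all genes called. Y541S against WT in N gave a median of 2.87, with 4 called higher, beside 1.14% of all genes. Of the 11 basal epithelial genes 10 rose and 1 fell, and their N sums were 6405 to 41696 CPM (WT), 16133 to 18232 CPM (D542G) and 23069 to 37070 CPM (Y541S). The part of these lists in the Mcam difference was not tested.

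**Figure D3:**
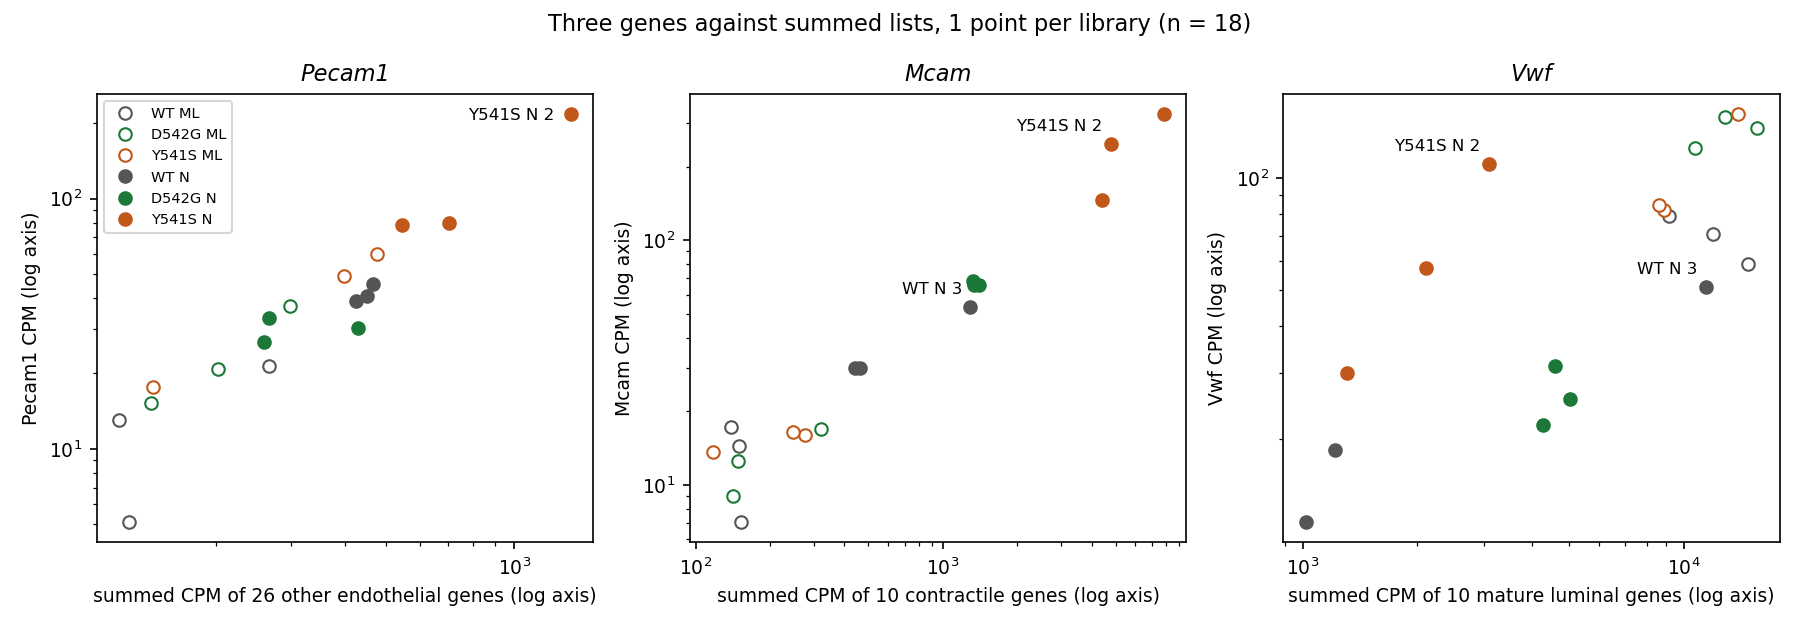
CPM of Pecam1, Mcam and Vwf (vertical, log axis) against the summed CPM of 26 other endothelial, 10 contractile and 10 mature luminal genes (horizontal, log axis), 1 point per library. Y541S N 2 is highest on both axes for Pecam1, the Y541S N libraries are highest on both for Mcam, and WT N 3 lies beside the ML libraries on the mature luminal axis.

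A list of 17 vascular ligands was not limited to ligands of the receptors among the 10 genes. Of these names 14 were tested, 5 rose and 1 fell in N, beside 13.8% of all genes called higher and 13.6% lower. The PDGF genes Pdgfa (1.84 ± 0.16, adjusted p = 3.15e-06) and Pdgfb (0.94 ± 0.15, adjusted p = 0.000355) rose, as did Hgf (3.14 ± 0.50, adjusted p = 0.000425), Angptl4 (1.66 ± 0.31, adjusted p = 0.00139) and Tgfb1 (0.56 ± 0.09, adjusted p = 0.000592). Vegfa, the ligand of Kdr and the 1 ligand that fell, dropped by 0.48 (SE 0.14, adjusted p = 0.0200) and was chosen for naming after its value was seen. Its median was 93.9 CPM in ML and 74.2 CPM in N. Angpt2, a ligand of Tek, and Gdf2, a ligand of the endoglin complex, were listed at 0 in all libraries, which says nothing about their expression, since how reads over overlapping genes were counted is not given here. Of 10 partners and relatives of the receptors, Acvrl1, the type I receptor that works with endoglin, rose by 0.51 ± 0.14 (adjusted p = 0.0167), and the tyrosine kinase receptors Kit (-3.59 ± 0.39, adjusted p = 1.95e-05) and Flt3 (-3.34 ± 1.13, adjusted p = 0.0394) fell.

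Markers of further cell types stood as follows between the gates, where 13.8% of all genes were called higher and 13.6% lower. Of 9 tested leukocyte genes 0 were called, and their sums were 7.96 to 45.0 CPM in ML and 8.80 to 166 CPM in N. Of 10 fibroblast genes 2 rose, with sums of 46.1 to 445 CPM in ML and 120 to 502 CPM in N. Of 5 tested adipocyte genes 1 was called, Fabp4, a lipid carrier that capillary endothelium also makes, which rose (1.14 ± 0.33, adjusted p = 0.0182). All 5 had log2 fold changes above 0, with a median of 3.11. The list summed to 69.8 to 251 CPM in ML and 103 to 618 CPM in N. Of 4 tested red cell genes 2 rose, with sums of 14.2 to 88.5 CPM in ML and 39.3 to 266 CPM in N. Of 8 Schwann cell and melanocyte genes 1 rose and 1 fell, and of 6 luminal progenitor genes 5 fell. Itgam (leukocytes) and Alas2 (red cells) were listed at 0 in every library, which, as for Angpt2 and Gdf2, says nothing about their expression. The part of these cells in the vascular values was not tested.

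Within single genotypes fewer of the 10 genes were called. In WT, where 3.53% of all genes were called, Mcam rose (1.55 ± 0.36, adjusted p = 0.0292) and the other 9 were not called. Kdr (2.24 ± 0.76, adjusted p = 0.116), Pecam1 (1.66 ± 0.55, adjusted p = 0.107) and Vwf (-1.35 ± 0.49, adjusted p = 0.136) had differences in the same direction as over all genotypes. With library numbers as blocks 3 genes were called in WT: Mcam, Kdr (2.71 ± 0.53, adjusted p = 0.0259) and Cspg4 (2.99 ± 0.62, adjusted p = 0.0322). Without WT N 3, Vwf fell by 2.19 (SE 0.45, adjusted p = 0.00574), and the Mcam call was lost when WT ML 1, WT ML 3, WT N 1 or WT N 2 was left out (adjusted p 0.0585 to 0.0906). It was also lost with only the WT libraries in the fit (adjusted p = 0.231), where 16 of all genes were called. Without WT ML 1, WT ML 2 and Y541S ML 3, which left 1 WT ML library, the Mcam value was 1.40 and again not called.

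In D542G, with 9.2% of all genes called, Mcam rose by 2.37 ± 0.37 (adjusted p = 0.00148) and Vwf fell by 2.36 (SE 0.50, adjusted p = 0.0100). The Vwf call was lost without D542G N 3 (adjusted p = 0.0611). Pecam1 (0.30 ± 0.53, adjusted p = 0.787) and Cspg4 (1.42 ± 0.99, adjusted p = 0.411) differed by less than 2 standard errors. In Y541S, with 6.95% of all genes called, Mcam rose by 3.96 ± 0.39 (adjusted p = 8.62e-05), 15.6-fold, and Cspg4 by 4.44 ± 1.11 (adjusted p = 0.0265). The Cspg4 call was lost when Y541S ML 1, ML 2, N 1 or N 3 was left out (adjusted p 0.0522 to 0.117), and without Y541S ML 3 the value was 5.34 ± 1.35 (adjusted p = 0.0389). Vwf differed by -0.69 ± 0.48 (adjusted p = 0.436).

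Whether these gate differences themselves depended on genotype was tested as an interaction. Against WT, 0.109% of all genes were called for D542G and 0% for Y541S, and 0 of the 10 genes in either. At an unadjusted p under 0.05 there were 0 and 1 of the 10, and 1954 and 1538 of all genes. The 1 was Mcam in Y541S, whose gate difference exceeded that of WT by 2.42 ± 0.50 on the log2 scale (adjusted p = 0.259). DESeq2 (2.45 ± 0.53, adjusted p = 0.00178) and limma-voom (3.00 ± 0.42, adjusted p = 0.00622) called it, as did edgeR without WT N 3 (adjusted p = 0.0390) or without Y541S N 3 (adjusted p = 0.0473). For D542G the Mcam interaction was 0.83 ± 0.49 (adjusted p = 0.581), and limma-voom called it (1.53 ± 0.40, adjusted p = 0.0348).

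Within the N gate, Mcam was higher in Y541S than in WT by 2.67 ± 0.37 on the log2 scale (adjusted p = 0.00480), at 240.5 ± 91.5 against 37.8 ± 13.5 CPM (mean ± SD, 3 libraries each), and it was the 1 gene of 10 called, with 1.14% of all genes called. Fitted on the libraries of WT N and Y541S N alone, the value was 2.66 ± 0.40 and not called (adjusted p = 0.146). That fit called 0 of all genes. Without WT N 3, Y541S N 2 and Y541S N 3, which left 1 Y541S N library, the Mcam value was 3.46. In D542G N Mcam was at 66.4 ± 1.61 CPM, lower than in Y541S by 1.86 (SE 0.36, adjusted p = 0.0176), again the 1 gene called, against 1.43% of all genes. That call was lost without Y541S N 1 (adjusted p = 0.0839) or Y541S N 2 (adjusted p = 0.0670), or when any 1 D542G N library was left out. Between D542G and WT, where 2.43% of all genes were called, 0 of the 10 were called by edgeR. At an unadjusted p under 0.05 there were 2 of 10, Mcam and Cspg4, and 3375 of all 18298 genes. DESeq2 called 1 and limma-voom 2 of the 10, and 1780 and 4096 of all genes.

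Cspg4 had its lowest N values in D542G, at 3.98 ± 3.06 CPM, against 40.2 ± 28.5 CPM in WT and 48.8 ± 18.3 CPM in Y541S. The log2 difference of D542G was -3.33 ± 1.05 from WT (adjusted p = 0.110) and -3.62 ± 1.06 from Y541S (adjusted p = 0.118). DESeq2 called both (adjusted p = 0.00704 and 0.00351), and so did edgeR for D542G against WT without WT N 3 (-3.80 ± 1.05, adjusted p = 0.0436). D542G N did not overlap WT N or Y541S N for this gene, a description for which the share of all genes without overlap was not counted. Pecam1 was at 30.1 ± 3.38 CPM in D542G N, 41.7 ± 3.40 CPM in WT N and 125 ± 80.2 CPM in Y541S N, and D542G differed from Y541S by -2.06 ± 0.55 (adjusted p = 0.0869). DESeq2 (adjusted p = 0.00576), limma-voom (adjusted p = 0.0163) and edgeR fitted on D542G N and Y541S N alone (adjusted p = 0.0483) called this Pecam1 difference. All 3 comparisons within a gate share groups, so their values are not independent of each other.

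Within the ML gate 0% of all genes, and 0 of the 10, were called by edgeR in each of the 3 genotype comparisons. At an unadjusted p under 0.05 there were 1, 4 and 0 of the 10 for D542G against WT, Y541S against WT and D542G against Y541S, and 1129, 1010 and 886 of all genes. DESeq2 and limma-voom called 0 of the 10 in each. Of all genes, in the same order of comparisons, DESeq2 called 112, 56 and 65 and limma-voom 93, 3 and 10. Mean Pecam1 was 13.2 ± 8.21 CPM in WT, 24.5 ± 11.5 CPM in D542G and 42.2 ± 22.0 CPM in Y541S, and Y541S differed from WT by 1.68 ± 0.55 (log2, adjusted p = 0.865). Mcam was at 13.0 ± 5.29, 12.8 ± 3.93 and 15.4 ± 1.56 CPM, a narrow spread beside its range within N.

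The 10 genes also varied among libraries of the same group. Deviations of log2(CPM + 1) from the group means were compared over the 18 libraries as a description, in which depth, scaling and the makeup of each sorted sample are shared by all genes. Pecam1 and Tek went together most closely (Pearson r = 0.90), followed by Kdr and Cdh5 (0.79), Pecam1 and Cdh5 (0.76), Tek and Rgs5 (0.75), Pecam1 and Pdgfrb (0.75) and Pecam1 and Rgs5 (0.75). Without Y541S N 2 these 6 values were 0.88, 0.78, 0.73, 0.81, 0.73 and 0.83. Pdgfrb and Rgs5 thus varied with the junction genes and receptors. Mcam and Cspg4 had an r of -0.48 with each other, and Eng and Vwf went with each other (0.61) but not with Pecam1 (0.07 and -0.04). The lowest value of all pairs was that of Eng and Cspg4 (-0.72).

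**Figure D4:**
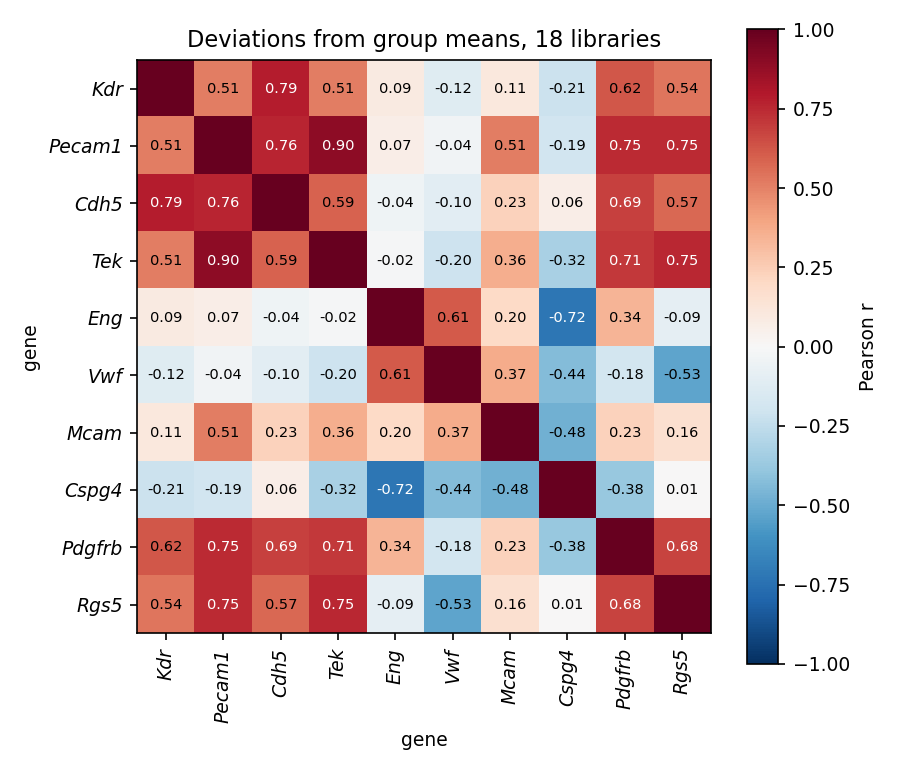
Pearson r between the deviations of 2 genes from their group means, log2(CPM + 1), over 18 libraries, from -1 (blue) to 1 (red). Kdr, Pecam1, Cdh5, Tek, Pdgfrb and Rgs5 stand at 0.51 to 0.90 with each other, and Mcam reaches 0.51 with Pecam1.

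Among 11678 genes, those most like Pecam1 by this measure were Icam2, an endothelial adhesion molecule (0.92), Fli1 (0.92) and the endothelial receptor gene Adgrl4 (0.91). Those most like Cdh5 were Fabp4 (0.93), the VEGF receptor gene Flt1 (0.93) and Ramp2 (0.92), and those most like Kdr were Ebf1 (0.88), Rasip1 (0.84) and Adcy4 (0.82). For Pdgfrb they were Cd300lg, a gene of capillary endothelium (0.91), Mir155hg (0.87) and Adgrl4 (0.85). The genes most like Mcam were Katnal2 (0.93), Triqk (0.88) and Npat (0.87), and those most like Cspg4 were Npc1 (0.94), Magoh (0.92) and Ak4 (0.92). None of the 3 nearest genes of Mcam or of Cspg4 was in the endothelial or mural lists, whereas Rasip1, Icam2, Fli1, Adgrl4, Flt1 and Ramp2 are in the endothelial list.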

How the data were processed

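RNA came from sorted mammary cells (RNeasy Micro Plus, Nextera XT libraries, per the labels' protocols), and the build was GRCm38, per the submitters' processing notes. No source used here names the aligner, the counting tool or a strand setting. All values rest on the gene-level read counts deposited by the authors. The RPKM column that the authors deposited was not used, because its gene width equals the whole gene span, introns included, for 85.6% of matched genes. Of 52636 identifiers 99.7% matched GENCODE M21, which gave symbols and exon lengths.

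The counts were tested with edgeR 4.0.16 in R 4.3.3, using filterByExpr (minimum count 10, minimum total 15) and TMM (factors 0.850 to 1.10). A mean per group (6) was fitted by quasi-likelihood, leaving 12 residual degrees of freedom (common dispersion 0.425), and the code was checked on simulated counts. Benjamini-Hochberg adjustment ran over 18298 genes in each of 12 comparisons. Standard errors are the log2 fold change divided by the square root of F. CPM uses library totals times TMM factors, and 3 counts correspond to 0.0594 to 0.0830 CPM. The biological coefficient of variation was 0.652.

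The 10 genes and the marker lists were chosen with earlier results of these data known. Of each list up to 5 genes with the smallest p were named, and for 6 of the 10 genes the 3 with the highest correlation. Alternatives were DESeq2 1.42.0 (its size factors, and its test), limma-voom 3.58.1 with quality weights, no filter, a replicate block, only the groups compared, each library left out, and 2 sets of libraries left out that were chosen after seeing the data. Equal numbers within a genotype were taken to pair N with ML, because deviations from group means correlated at 0.168 to 0.556 in all 9 such pairs. This pairing comes from the data, not the labels. Across genotypes, 4 of 18 pairs with the same number correlated over 0.1, and numbers were not taken as pairs. For the comparisons within a gate the replicate block still used these numbers as blocks.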

Additional observations from a re-analysis of the deposited data

How the results depend on the processing

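Of 848 alternative values for 33 gene results, 777 kept direction and side of the threshold, 24 lost a call, 36 gained one and 11 changed sign, all 11 for Eng over the 3 genotypes. Its log2 difference of 0.00 became -0.0018 with no filter on low counts, -0.44 with limma-voom, -0.078 with the replicate block, -0.60 without WT N 3, Y541S N 2 and Y541S N 3, and -0.15 without WT ML 1, WT ML 2 and Y541S ML 3. With 1 library left out it ranged from -0.41 to 0.18 and was below 0 without WT ML 1, WT ML 2, D542G ML 3, Y541S ML 2, WT N 3 or Y541S N 2.

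Over the 3 genotypes, 5022 of all genes were called in the main fit, 4504 without WT ML 3 and 7690 with limma-voom. The number of the 10 genes called over the 3 genotypes (6) was 6 to 9 with 1 library left out, where 4105 to 6365 of all genes were called. It was 9 without WT ML 3, which left WT ML 1 and WT ML 2 in that group, and 9 with limma-voom. Each of the 2 added sets left 1 library in a group, so the calls over the 3 genotypes that were lost there are given only beside the results. In WT, 646 of all genes were called in the main fit, 2142 with DESeq2 and 5167 with limma-voom. The replicate block called 900 and the fit on only the groups compared 16. Of the 10 genes, the number called in WT (1) was 3 with DESeq2, 7 with limma-voom, 3 with the replicate block and 0 with only the groups compared. It was also 2 without the 3 N libraries named above, 0 without the 3 ML libraries, and 0 to 2 with 1 library left out. With 1 library left out it was 1 to 2 in D542G (2) and 1 to 2 in Y541S (2). Those fits called 157 to 2965 of all genes in WT, 702 to 2545 in D542G and 571 to 2045 in Y541S. The main fit called 1684 in D542G and 1272 in Y541S. The D542G fit with 1 of the 10 called, without D542G N 3, had 702 of all genes. The Y541S fits with 1 of the 10 called had 571 to 1086. Within N, D542G against WT (0) gave 1 with DESeq2, 2 with limma-voom and 0 to 1 with 1 library left out. DESeq2 and limma-voom called 1780 and 4096 of all genes there, against 444 in the main fit. Y541S against WT (1) gave 2 with limma-voom, 0 with the replicate block, 0 with only the groups compared, 2 without the 3 N libraries and 1 to 2 with 1 left out. For Y541S against WT, limma-voom called 1931 of all genes, the replicate block 20 and only the groups compared 0, against 208 in the main fit. D542G against Y541S (1) gave 4 with DESeq2, 4 with limma-voom, 0 with the replicate block, 3 with only the groups compared and 0 to 1 with 1 left out. Of all genes, DESeq2 called 1185 there, limma-voom 1221, the replicate block 29 and only the groups compared 654, against 261. With 1 library left out, these 3 comparisons within N called 92 to 1342, 48 to 646 and 56 to 501 of all genes, in the order given. For the interactions (0 each), D542G gave 1 with limma-voom, and Y541S gave 1 with DESeq2, 1 with limma-voom, 1 without the 3 N libraries and 0 to 1 with 1 left out. Of all genes, limma-voom called 1254 for the D542G interaction, against 20 in the main fit. For the Y541S interaction DESeq2 called 189 and limma-voom 334, against 0. The replicate block used pairs of N and ML libraries between the gates. Within a gate it used library numbers across genotypes, which were not taken as pairs, so it cannot show there what pairing would change. The block changed no other call than those given here and beside the results. The causes of these changes were not tested.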

Other observations

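Cspg4 shared its high libraries with other genes of the lists. Ndufa4l2 stood at 126, 112 and 148 CPM in WT N 1, WT N 2 and Y541S N 3 and at no more than 15.6 CPM in the 15 other libraries. Cd34 was at 58.6, 39.8 and 29.7 CPM in the same 3 libraries and at most 17.7 CPM elsewhere, and Sox7 at 53.2, 72.0 and 66.3 CPM against at most 31.4 CPM. In Y541S N 1 and Y541S N 2, where Cspg4 was at 46.1 and 32.0 CPM, Ndufa4l2 was at 3.43 and 3.65 CPM. Rgs4 was at 169, 144 and 120 CPM in the Y541S N libraries, at 20.4, 29.9 and 37.1 CPM in D542G N and at 11.8, 13.5 and 7.42 CPM in WT N. These values were picked after they were seen and are given as a description.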
